A study of Mus musculus with 2 samples.

Results

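Genes for the enzymes that hydroxylate and crosslink collagen, and for an enhancer of its processing, were examined in RNA-seq libraries of primary mouse hepatocytes. The set holds 10 genes, taken by name from the mRNA table through their RefSeq identifiers, of 20313 genes with a symbol in that table. They are the lysyl oxidases Lox, Loxl1, Loxl2 and Loxl3, the procollagen C-proteinase enhancer Pcolce, the lysyl hydroxylases Plod1 and Plod2, and the prolyl 4-hydroxylase alpha subunits P4ha1, P4ha2 and P4ha3. All 10 have an entry in the table.

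There were 2 libraries, both from hepatocytes of wild-type male C57BL/6J mice that were 5 weeks old when obtained. The oil library came from mice given mineral oil into the peritoneum. The CCl4 library came from mice given CCl4 as a 20% solution in mineral oil, at 2.5 ml of CCl4 per kilogram of body weight and 2 injections a week. The labels give 8 weeks of injection and the methods give 4. CCl4 is a solvent that injures hepatocytes when they metabolise it, and its repeated injection is a common model of liver fibrosis. The hepatocytes were obtained by pronase and collagenase digestion with a density gradient and were not sorted, and whether a library pooled several mice is not given in the sources used here. With 1 library per treatment no difference below has a replicate check, and an effect of CCl4 cannot be told apart from a difference between single preparations.

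A collagen chain is modified in several steps on its way to the matrix. In the endoplasmic reticulum prolyl 4-hydroxylase, a tetramer of alpha subunits and the protein disulfide isomerase P4hb, hydroxylates prolines so that the triple helix is stable at body temperature, and lysyl hydroxylases act on lysines. Outside the cell the C-propeptide is cut off, a step that Pcolce enhances, and copper-dependent lysyl oxidases then oxidise lysines and hydroxylysines, from which the covalent crosslinks of the fibre form. In the injured liver, activated stellate cells and other myofibroblasts are the main known source of this collagen.

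Levels are given in RPKM, the authors' read density scaled to transcript length and library size, so genes of different length can be compared. The table holds no value between 0 and 1.00035 RPKM, and a lower level appears there as 0. Fold changes are log2 of the CCl4 over the oil level with 0.1 RPKM added to each, and are given for genes listed above 0 in both libraries. The call used here is a log2 fold change of at least 1 in size, which is a rule of size and not a test. The 10686 genes that could be compared had a median log2 fold change of 0.30, so the middle gene was itself higher in the CCl4 library. Counting intervals (95%, exact Clopper-Pearson) rest on whole reads recovered from the steps of the RPKM values. They compare these 2 libraries and cover counting error only. The recovered library totals were 57992499 reads for oil and 64655507 for CCl4.

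Loxl1, Loxl2, Loxl3 and Pcolce were far higher in the CCl4 library, whereas the prolyl 4-hydroxylase alpha subunits P4ha1 and P4ha2 differed little. Of the 10 genes, 7 were listed above 0 in both libraries. Among these 7, Loxl1, Loxl2, Loxl3 and Pcolce were called higher, which is 4 of 7 where 14.3% of all comparable genes were called higher. None of the 7 was called lower, against 5.48% of all comparable genes. Once the libraries were scaled so that the median gene did not differ, the same 4 genes were still called higher, where 8.02% of all comparable genes were higher and 9.69% lower. Lox and Plod2 were listed only in the CCl4 library, a pattern shown by 5.72% of all genes in the table, and P4ha3 was listed at 0 in both. None of the 10 was listed only in oil, as 0.793% of all genes were. The median log2 fold change of the 7 genes was 1.86.

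**Figure D1:**
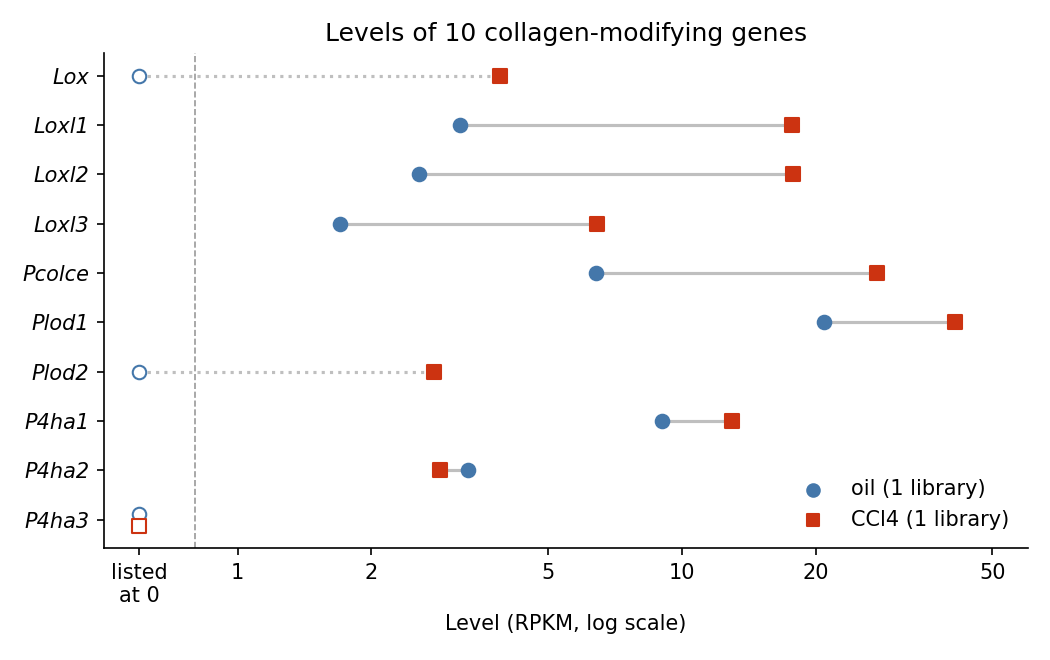
Level of each of the 10 genes in the oil library (blue circles) and the CCl4 library (red squares), in RPKM on a log axis, with 1 library per treatment. Open symbols left of the dashed line mark a listed 0, and the lines of Loxl1, Loxl2, Loxl3 and Pcolce are longer than those of P4ha1 and P4ha2.

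Among the lysyl oxidases listed above 0 in both libraries, Loxl2 had the largest fold change. Loxl2 carries scavenger receptor cysteine-rich domains ahead of its catalytic domain and is known as a crosslinker of fibrotic matrix. It was at 2.56 RPKM in the oil library and at 17.8 RPKM in the CCl4 library. The log2 fold change was 2.75, a 6.73-fold difference, and 99.4% of comparable genes had a smaller one. The recovered reads behind these values were 769 in oil and 5966 in CCl4. The counting interval of the log2 ratio runs from 2.69 to 2.91. Loxl2 lies on chromosome 14 (chr14:69608692-69695834, GRCm38.p6, the assembly also called mm10).

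Loxl1, which is best known for its part in elastic fibres, showed a similar difference. It was at 3.17 RPKM in oil and 17.7 RPKM in CCl4, a log2 fold change of 2.44 with a counting interval from 2.36 to 2.60. In the oil library Loxl1 was above Loxl2 beyond the counting intervals of their levels. In the CCl4 library the level of Loxl1 (interval 17.1 to 18.3 RPKM) and that of Loxl2 (17.4 to 18.3 RPKM) could not be told apart. The ratio of the Loxl2 to the Loxl1 level was 0.807 in oil and 1.01 in CCl4. Loxl1 lies at chr9:58287723-58313212.

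Loxl3, which shares the domain layout of Loxl2, was at 1.70 RPKM in oil and 6.44 RPKM in CCl4. Its log2 fold change was 1.86, and the counting interval from 1.76 to 2.08 does not reach those of Loxl1 and Loxl2. Thus Loxl3 was called higher too, but by less than both of these paralogs. It lies at chr6:83034205-83052566.

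Lox, the founding member of the family and the main crosslinker of fibrillar collagen, was listed at 0 in oil and at 3.90 RPKM in CCl4. No fold change is given against a listed 0. In the CCl4 library it was the lowest of the 4 lysyl oxidases, below Loxl3. The only Lox transcript in the table is NM_010728. The gene lies at chr18:52516060-52529867. Loxl4, the fifth lysyl oxidase and not among the 10 genes, was at 1.99 RPKM in oil and 2.63 RPKM in CCl4. Its log2 fold change of 0.38 was not called.

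Pcolce binds the C-propeptide of fibrillar procollagens and speeds its removal. It was at 6.40 RPKM in oil and at 27.6 RPKM in CCl4. The log2 fold change was 2.09, a 4.26-fold difference, with a counting interval from 1.98 to 2.24 and 571 and 2742 recovered reads. With each gene taken as its transcript with the highest mean, Pcolce was the third most abundant of the 10 genes in oil and the second in CCl4. It lies at chr5:137605105-137611522.

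The partners of Pcolce in the same step behaved otherwise. Bmp1, the protease whose activity Pcolce enhances, was at 16.6 RPKM in oil and 15.0 RPKM in CCl4 (log2 fold change -0.14). The paralog Pcolce2 was at 4.06 and 5.24 RPKM (log2 fold change 0.36). The ratio of Pcolce to Bmp1 therefore went from 0.387 in oil to 1.83 in CCl4, and that of Pcolce to Pcolce2 from 1.58 to 5.26. The Bmp1 relatives Tll1 and Tll2 were listed at 0 in both libraries.

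Plod1, the lysyl hydroxylase of the helical part of the chain, was the most abundant of the 10 genes in both libraries. It was at 20.9 RPKM in oil and 41.2 RPKM in CCl4. Its log2 fold change of 0.98 lies just below the call, and the counting interval from 0.93 to 1.04 includes the threshold of 1. The members on either side of that threshold were Plod1 at 0.98 and Loxl3 at 1.86. Plod1 lies at chr4:147909753-147936776.

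Plod2 hydroxylates lysines of the telopeptides, the ends of the chain outside the helix, and so favours the hydroxyallysine type of crosslink. Both of its transcripts in the table were listed at 0 in oil. In CCl4 they were at 2.77 RPKM (NM_011961) and 2.74 RPKM (NM_001142916). These transcripts differ by an alternative exon, and nearly equal values do not show how reads shared by both were counted. Plod3, the third lysyl hydroxylase, which also glycosylates hydroxylysines, was at 11.7 and 19.8 RPKM (log2 fold change 0.76). The gene Plod2 lies at chr9:92539636-92608428.

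**Figure D2:**
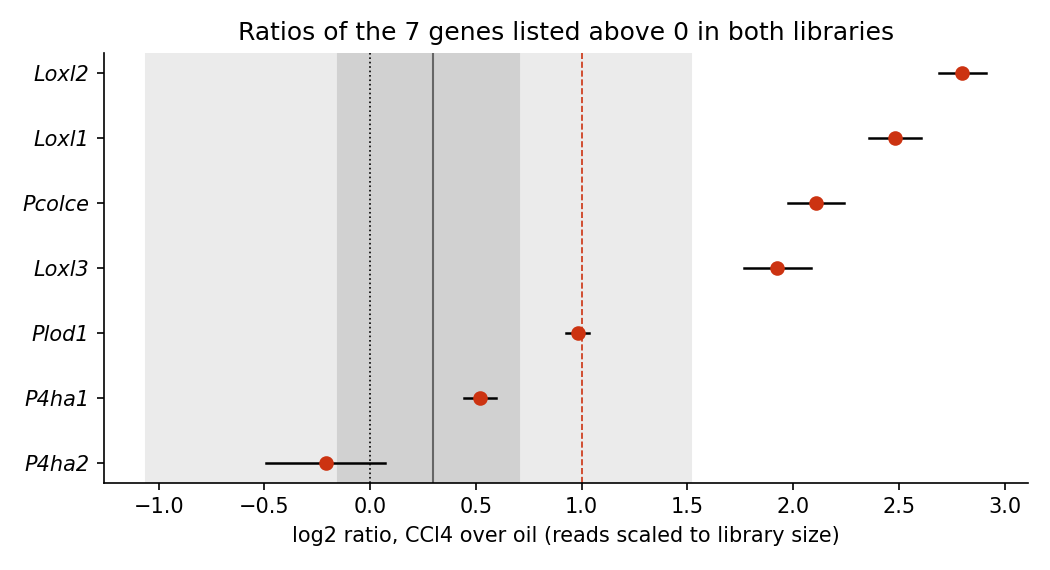
Log2 ratio of the CCl4 over the oil reads, scaled to library size, for the 7 genes listed above 0 in both libraries, with 95% counting intervals as black bars. The bands show the middle 50% and 90% of the fold changes (with 0.1 RPKM added) of the 10686 comparable genes, the grey line their median of 0.30 and the red dashed line the call at 1, with Loxl2, Loxl1, Pcolce and Loxl3 to the right of both bands.

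The prolyl 4-hydroxylase alpha subunits carry the catalytic site of the enzyme and differed little between the libraries. P4ha1, the main isoform in most tissues, was at 9.04 RPKM in oil and 12.9 RPKM in CCl4. Its log2 fold change was 0.51 with a counting interval from 0.44 to 0.59, and 64.0% of comparable genes had a smaller one. P4ha2 was at 3.30 RPKM in oil and 2.85 RPKM in CCl4 for NM_001136076, and at 3.28 and 2.80 RPKM for NM_011031. The log2 fold change of P4ha2 was -0.20, and 22.8% of comparable genes had a smaller one. The log2 ratio of reads was -0.21 for NM_001136076 (interval -0.49 to 0.07, 218 and 210 recovered reads). It was -0.23 for NM_011031 (interval -0.43 to -0.03, 435 and 414 recovered reads). So P4ha1 was a little higher, and both P4ha2 transcripts were slightly lower by nearly the same amount, with 0 inside the interval of NM_001136076. The recovered reads rest on the shortest length that gave whole reads, 1139 bases for NM_001136076 and 2284 bases for NM_011031. With nearly equal RPKM, the fewer reads and wider interval of NM_001136076 follow from its shorter length and need not mean less support. These transcripts share most of their sequence, and how their common reads were counted is not given in the sources used here. P4ha3 was listed at 0 in both libraries. P4ha1 lies at chr10:59323197-59373304, P4ha2 at chr11:54100924-54131668 and P4ha3 at chr7:100285489-100319701.

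P4hb, the other subunit of the tetramer and a general protein disulfide isomerase, was far more abundant than the alpha subunits in both libraries. It was at 322.7 RPKM in oil and 233.0 RPKM in CCl4, a log2 fold change of -0.47. The level of P4hb was 35.7 times that of P4ha1 in oil and 18.0 times in CCl4. The ratio of P4ha1 to P4ha2, taken at NM_001136076, was 2.74 in oil and 4.54 in CCl4. With both P4ha2 transcripts summed (6.58 RPKM in oil and 5.66 RPKM in CCl4) it would be lower in each library.

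P4ha1, P4ha2 and Plod1 are known as genes that hypoxia can raise, so sequence before these genes is shown, from the RefSeq promoter table (GRCm38.p6). This table gives 250 bases before a transcript start, and the windows of 5 of the 10 genes were examined, these 3, P4ha3 and Pcolce. Windows of the other members, Lox among them, were not examined, which does not show that the table lacks them. For P4ha2 and Plod1 the whole window lies before the annotated gene. For P4ha1, P4ha3 and Pcolce the start used by the table lies inside the gene, so that 99, 31 and 118 bases of the window overlap it, and for P4ha1 only the 151 bases before the gene are printed. Each sequence is given 5′ to 3′ on the strand of its gene. Capitals mark the hypoxia response element cores ACGTG and GCGTG, searched on both strands.
P4ha1 (chr10:59323046-59323196, plus strand): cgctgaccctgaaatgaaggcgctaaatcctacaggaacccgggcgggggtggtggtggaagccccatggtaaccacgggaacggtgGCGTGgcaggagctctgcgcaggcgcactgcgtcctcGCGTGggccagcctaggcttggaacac
P4ha2 (chr11:54100674-54100923, plus strand): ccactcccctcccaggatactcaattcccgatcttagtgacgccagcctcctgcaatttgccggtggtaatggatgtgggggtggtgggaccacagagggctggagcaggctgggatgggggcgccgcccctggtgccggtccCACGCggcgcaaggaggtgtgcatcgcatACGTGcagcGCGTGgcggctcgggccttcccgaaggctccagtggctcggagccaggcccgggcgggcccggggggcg
Plod1 (chr4:147936777-147937026, minus strand): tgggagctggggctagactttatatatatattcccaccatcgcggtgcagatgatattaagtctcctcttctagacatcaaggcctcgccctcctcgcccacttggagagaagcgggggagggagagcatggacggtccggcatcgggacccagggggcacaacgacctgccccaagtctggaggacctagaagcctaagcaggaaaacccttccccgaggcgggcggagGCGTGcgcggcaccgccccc

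Positions count back from the end of each 250-base window, which is the transcript start of the table. In the P4ha1 window the cores begin at positions -163, -126 and -16, the last of them inside the annotated gene. In the P4ha2 window they begin at -107, -78 and -69. The windows of Plod1 and Pcolce hold 1 core each, that of Pcolce inside the gene, and the window of P4ha3 holds none. At least 1 of these cores is present in 38.6% of the 32851 windows in the table, and 3 or more in 6.58%. The P4ha1 and P4ha2 windows have a GC content of 69.6% and 70.0%, against a median of 52.4% over all windows. A match is a description of the letters and says nothing of binding.

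By role, the gene set changed its composition. The summed level of the 4 lysyl oxidases was 7.43 RPKM in oil and 45.8 RPKM in CCl4, and with the listed 0 of Lox at the lowest listed value the ratio is still at least 5.44. The 3 prolyl 4-hydroxylase alpha subunits summed to 12.3 RPKM in oil and 15.8 RPKM in CCl4. Thus the alpha subunits together exceeded the lysyl oxidases in oil, and in CCl4 the order was the reverse. Lysyl oxidases made up 15.8% of the summed level of the 10 genes in oil and 34.4% in CCl4, and the alpha subunits made up 26.2% and 11.9%. The lysyl hydroxylases Plod1 and Plod2 held the largest share in oil, 44.3%, and 33.0% in CCl4, and Pcolce held 13.6% and 20.7%.

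**Figure D3:**
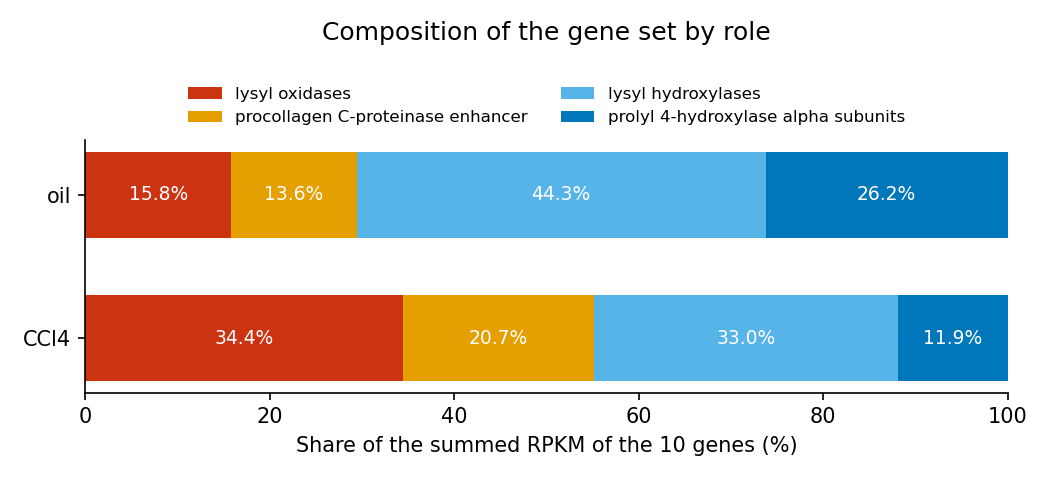
Share of the summed RPKM of the 10 genes held by each role in the oil and the CCl4 library, in percent, with a listed 0 counted as 0. The lysyl oxidases go from 15.8% to 34.4% and the prolyl 4-hydroxylase alpha subunits from 26.2% to 11.9%.

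The order of level takes each gene as its transcript with the highest mean RPKM. The oil library had Plod1, P4ha1, Pcolce, P4ha2, Loxl1, Loxl2 and Loxl3, followed by the 3 genes listed at 0. P4ha2 and Loxl1 were the only neighbours in this order whose counting intervals overlapped. The CCl4 library had Plod1, Pcolce, Loxl2, Loxl1, P4ha1, Loxl3, Lox, P4ha2 and Plod2, followed by P4ha3 at a listed 0. There the intervals of Loxl2 and Loxl1 overlapped. No interval was computed for Lox and Plod2, so their places in the order rest on their levels alone. With transcripts summed, P4ha2 (6.58 RPKM) lies above Pcolce (6.40 RPKM) in oil. In CCl4, P4ha2 (5.66 RPKM) and Plod2 (5.51 RPKM) then lie above Lox (3.90 RPKM).

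The other genes of collagen modification were taken from a list of 24 genes. Of these, 17 were listed above 0 in both libraries, and 7 of the 17 were called higher and 0 lower, against 14.3% and 5.48% of all comparable genes, with a median log2 fold change of 0.76. The genes called higher included Adamts2, which removes the N-propeptide (1.01 to 11.5 RPKM, log2 fold change 3.39), and the prolyl 3-hydroxylase P3h3 (1.09 to 7.80 RPKM, 2.73). They also included the collagen-binding matricellular protein Sparc (51.1 to 314.6 RPKM, 2.62), the collagen chaperone Serpinh1 (39.3 to 129.5 RPKM, 1.72) and Crtap, a partner of prolyl 3-hydroxylases (6.65 to 22.0 RPKM, 1.71). P3h4 and the galactosyltransferase Colgalt1 lay near the threshold at 1.05 and 1.03, and neither passed it once the libraries were scaled to the median gene.

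The remaining 10 comparable genes of this list were between -0.47 (P4hb) and 0.76 (Plod3). P3h1, which acts in a complex with Crtap, was also at 0.76, and their partner Ppib, a general prolyl isomerase, was at 0.07. Fkbp14, Tmem38b and the export factor Mia3 were at 0.47, -0.10 and -0.30. Fkbp10, an isomerase that acts with Plod2, was listed at 0 in oil and at 6.44 RPKM in CCl4. P3h2 (2.66 RPKM) and Adamts14 (2.19 RPKM) were also listed only in CCl4, and Colgalt2, Tll1, Tll2 and Adamts3 in neither library.

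A list of cofactor supply genes, to which the crosslinking transglutaminase Tgm2 had been added, gave 2 of 8 called higher and 0 lower, against 14.3% and 5.48% of all comparable genes, with a median log2 fold change of 0.20. Scaled to the median gene, the count turned to 0 higher and 2 lower, the lower ones being Gulo (-1.10) and Slc23a1 (-1.17), where 8.02% of all comparable genes were higher and 9.69% lower. Atp7a, the copper pump that loads lysyl oxidases, was at 1.95 RPKM in oil and 4.44 RPKM in CCl4 (1.15). Slc39a13, a zinc transporter of the secretory pathway, was at 3.40 and 6.94 RPKM (1.01). Gulo, which makes the ascorbate that prolyl and lysyl hydroxylases need, was at 94.0 and 53.9 RPKM (-0.80), and the ascorbate transporter Slc23a1 at 8.73 and 4.71 RPKM (-0.88). Slc23a2, Slc31a1, Atox1 and Tgm2 were at 0.56, -0.42, -0.05 and 0.45.

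The median difference of the substrates was larger than that of the 7 comparable genes of the set. Of 14 collagen and elastin genes, 12 were comparable and 11 were called higher, against 14.3% of all comparable genes, with a median log2 fold change of 3.35. The chains of the main fibrillar collagens, types I and III, are Col1a1, Col1a2 and Col3a1, and their summed level was 29.3 RPKM in oil and 562.4 RPKM in CCl4. By the mean of both libraries these were the most abundant genes of the list, but in oil Col4a1, a chain of basement membrane collagen, was the highest at 22.1 RPKM. Per RPKM of these 3 chains, the summed lysyl oxidase level was 0.254 in oil and 0.0815 in CCl4. The same quotient of the prolyl 4-hydroxylase alpha subunits was 0.422 and 0.0281, that of the lysyl hydroxylases Plod1 and Plod2 was 0.712 and 0.0781, and that of Pcolce was 0.219 and 0.0490. Each of these levels was therefore smaller in relation to its substrate mRNA in the CCl4 library, and most so for the alpha subunits. Per RPKM of the whole list of 14 genes the differences were smaller, with 0.0870 and 0.0512 for the lysyl oxidases, 0.144 and 0.0176 for the alpha subunits and 0.0749 and 0.0308 for Pcolce.

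**Figure D4:**
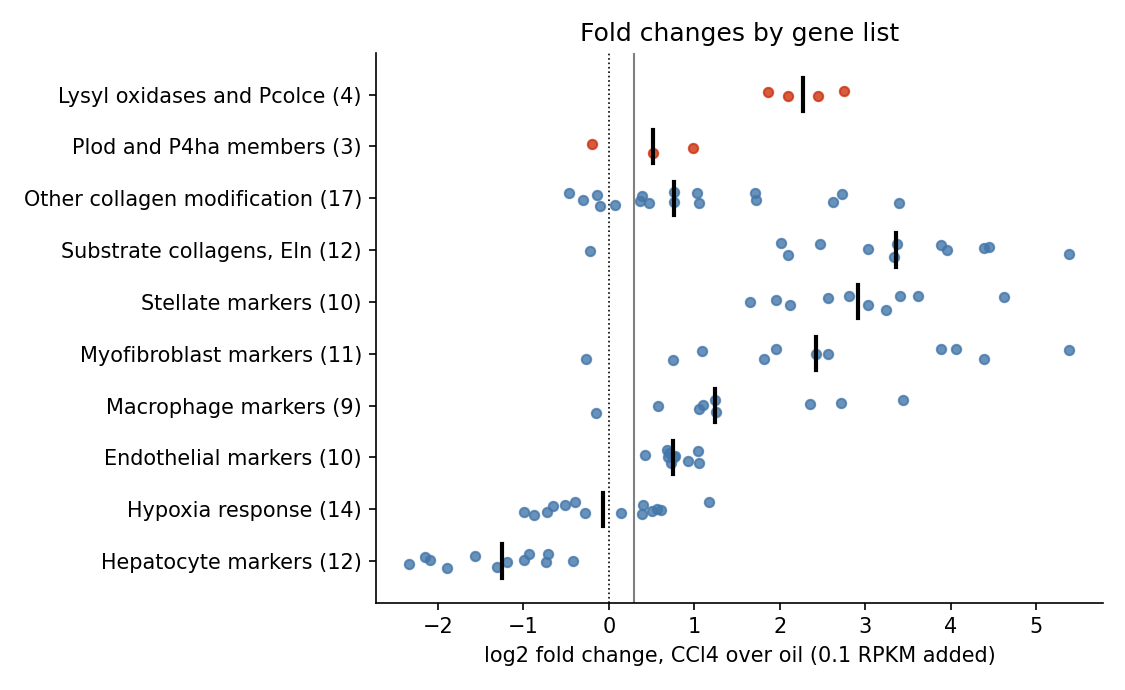
Log2 fold change (CCl4 over oil, 0.1 RPKM added) of each comparable gene in the set (red) and in the other lists (blue), with the number of genes in brackets and the median as a black bar. The grey line is the median of all comparable genes, 0.30. The lysyl oxidases and Pcolce overlap the substrates, other collagen modification genes, and the stellate, myofibroblast and macrophage markers. The Plod and P4ha genes lie nearer to the grey line.

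Stellate cell markers and most myofibroblast markers were higher in the CCl4 library together with Loxl1, Loxl2, Loxl3 and Pcolce. All 10 comparable genes of a list of 12 stellate cell markers were called higher, against 14.3% of all comparable genes, with log2 fold changes from 1.65 to 4.62 and a median of 2.92. Their summed level was 129.5 RPKM in oil and 778.8 RPKM in CCl4, and Vim, Dcn and Colec11 were the most abundant by the mean of both libraries. Ngfr and Pdgfrb were listed at 0 in oil and at 5.28 and 16.8 RPKM in CCl4. Of 12 myofibroblast markers 9 of 11 comparable ones were called higher, against the same 14.3%, with log2 fold changes from -0.27 to 5.39 and a median of 2.42. Their summed level was 208.0 RPKM in oil and 921.2 RPKM in CCl4, and Thbs2 was listed at 0 in oil. By the mean of both libraries the most abundant were Col3a1 (3.88), Fn1 (-0.27, lower in CCl4) and Spp1 (1.95). Scaled to the median gene, 10 stellate and 8 myofibroblast markers were still called higher, against 8.02% of all comparable genes. Col1a1, Col1a2 and Col3a1 stand among both the myofibroblast markers and the substrates, and Spp1 among both the myofibroblast and the cholangiocyte markers, so these counts are not separate. The part of these cells in the differences of the lysyl oxidases and Pcolce was not tested. In such bulk RNA, more cells of a type and more RNA per cell cannot be told apart.

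Macrophage markers were called higher in 7 of 9 comparable genes, against 14.3% of all comparable genes. Their log2 fold changes ran from -0.15 to 3.44 with a median of 1.24, and their summed level was 1104 RPKM in oil and 3150 RPKM in CCl4. By the mean of both libraries the most abundant were Lyz2 (2.36), Cd5l (1.10) and Clec4f (-0.15). Marco (2.71) and Cx3cr1 (3.44), named after their values were seen, also reached the values of the lysyl oxidases, and the part of macrophages was likewise not tested. Scaled to the median gene, 3 of 9 macrophage markers remained above the threshold, against 8.02% of all comparable genes. Of 10 endothelial markers 2 were called higher (median 0.74, summed level 597.6 and 1028 RPKM), and 0 after the same scaling, against 14.3% and 8.02% of all comparable genes. Of 4 comparable cholangiocyte markers 2 were called higher, and 1 after the same scaling, against 14.3% and 8.02% of all comparable genes. Sox9 and Cftr were listed at 0 in both libraries. The labelled cell type was present in both libraries, with Alb at 8656 RPKM in oil and 6476 RPKM in CCl4. Of 12 hepatocyte markers 7 were called lower (median -1.25), against 5.48% of all comparable genes, and 11 were after scaling, against 9.69%. Their summed level was 24701 RPKM in oil and 12970 RPKM in CCl4.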

How the data were processed

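RNA-seq values were taken from the authors' deposited mRNA table, which gives 1 RPKM value per RefSeq transcript and library. The submitters' processing notes name CASAVA 1.4, TopHat2 and mm10, and the counting program, annotation version, strand and filters are not given in the sources used here. Values under about 1 RPKM appear as 0. The authors' own columns of log2 change, p-value and q-value hold their comparison and were not used. The other deposited tables of RPKM served for depth only: short lncRNA genes (under 400 bases) gave the library totals, with whole reads in 207 of 221 genes for oil and 228 of 236 for CCl4, and new lncRNAs came with read counts deposited by the authors. Transcript lengths of 50 to 30000 bases were then tried for each mRNA, and the first to yield integer reads for oil and CCl4 alike was kept. Reads are lower bounds, and intervals if anything too wide, only where the true length itself passed this search. The kept length of Slc23a1 was 22147 bases. That of a hypoxia list transcript was 16219 bases, where the other transcripts of its gene had 4655 to 5181. Such reads can be too high and their intervals too narrow. On 1397 new lncRNAs the recovered reads equalled the deposited counts in 83.2% and exceeded them in 0.

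Symbols came from a RefSeq gene table of GRCm38.p6 (27045 of 27457 transcripts), and a gene was its transcript with the highest mean RPKM. No test across conditions was possible with 1 library per group. Genes named are the 10 members, the collagen modification and cofactor lists, and at most the 3 most abundant genes of each other list, with "most abundant" taken over the mean of both libraries. Markers listed at 0 and further genes of those lists (Col4a1, Marco, Cx3cr1, Vegfa, Bnip3, Hk2, Slc2a1, Ero1a, Car9 and Ankrd37) were named after their values were seen. The members and lists were chosen with earlier results of these data known. The steps were tested on simulated data. The alternatives were another pseudocount, scaling to the median gene, summed transcripts, listed zeros at the lowest value, a stricter fold and a filter on the mean. Python 3.11.15, numpy 2.4.6, pandas 2.3.3, scipy 1.17.1 and matplotlib 3.10.9 were used.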

Additional observations from a re-analysis of the deposited data

How the results depend on the processing

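Of the 7 comparable genes, Loxl1, Loxl2, Loxl3 and Pcolce stayed above a log2 fold change of 1 wherever a value could be had, with 1.46 for Loxl3 (1 RPKM added) as the lowest. Plod1, P4ha1 and P4ha2 ranged from 0.68 to 0.98, from 0.22 to 0.52 and from -0.50 to -0.16, and none changed sign. Of 40 such values 29 stayed within the counting interval and 11 moved. All 7 genes moved with scaling, and Loxl1, Loxl2, Loxl3 and Pcolce moved with 1 RPKM added. Most other values could not move. Zeros at the lowest value, the filter on the mean and summing of single transcripts repeat the main value. A value without a pseudocount is the centre of the interval. The count of 29 is therefore no measure of stability. The median of the 7 genes, 1.86, became 1.46 with 1 RPKM added and 1.57 with scaling to the median gene. It was 2.09 among the 5 genes with a mean of at least 5 RPKM. Loxl1 and Loxl2 passed this filter only through their CCl4 level, so the filter itself bears on that median. With a listed 0 set to 1.00035 RPKM, Lox and Plod2 have log2 fold changes of at least 1.86 and 1.38. Then 6 of 9 genes are called higher, where 15.5% of 12009 genes are. Lox and Plod2 entered this count only because they are listed above 0 in CCl4, so the larger count adds no evidence. For the collagen modification list, the median of 0.76 became 0.46 with scaling and 0.89 with listed zeros so set. Under the stricter threshold of 2, 3 of its 17 comparable genes were called higher, as were 3 of the 7 genes above. At that threshold 1.76% of all comparable genes were called higher. For all comparable genes, 1527 higher and 586 lower became 857 and 1035 with scaling, and 188 and 75 under that stricter threshold. With a mean of at least 5 RPKM 951 of 6842 genes were higher (13.9%). A stricter fold or filter lowers counts by construction, and scaling lowers every value by 0.30. No paired analysis was possible because each group has 1 library. The lowest listed value limits Lox, Plod2 and P4ha3, each below it in at least 1 library. Scaling of the other lists was chosen after seeing the data.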

Other observations

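Genes that respond to hypoxia, a list of 16 that shares a known regulator with P4ha1, P4ha2, Plod1, Plod2, Lox and Loxl2, showed no common direction. Of its 14 comparable genes, 1 was called higher and 0 lower (14.3% and 5.48% of all comparable genes), with a median log2 fold change of -0.07 against 0.30 for all comparable genes, and 7 of the 14 had a value above 0. Scaled to the median gene, 0 were called higher and 3 lower (8.02% and 9.69% of all comparable genes), namely Vegfa (-1.29), Bnip3 (-1.17) and Ldha (-1.02). By the mean of both libraries its most abundant genes were Ldha, at 373.0 RPKM in oil and 225.5 RPKM in CCl4, Pgk1, at 127.4 and 89.0 RPKM, and Ddit4, at 51.6 and 39.2 RPKM, all lower in CCl4. Among those higher in CCl4 were Hk2 (1.17, called), Slc2a1 (0.61) and Ero1a (0.57), and Car9 (1.13 RPKM) and Ankrd37 (2.19 RPKM) were listed only in CCl4. Genes of this list other than the 3 most abundant were named after their values were seen. The part of hypoxia in the values of the 10 genes was not tested.

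Other iron- and 2-oxoglutarate-dependent oxygenases, the enzyme class of the prolyl and lysyl hydroxylases, formed a list of 12 genes. Plod3, P3h1, P3h2 and P3h3 also stand in the collagen modification list, so the counts of these lists are not separate. Of the 10 comparable genes 1 was called higher and 1 lower, where 14.3% and 5.48% of all comparable genes were, with a median of 0.17. The gene called lower was Phyh, the peroxisomal phytanoyl-CoA hydroxylase, at 349.8 RPKM in oil and 92.3 RPKM in CCl4 (log2 fold change -1.92), and the gene called higher was the prolyl 3-hydroxylase P3h3 (2.73). Egln2, a hydroxylase of hypoxia-inducible factors, was at 33.0 and 31.4 RPKM (-0.07).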
